A study of Mus musculus with 24 samples.

Results

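The genes described here are the noncoding transcripts Meg3, Rian and Mirg and every other gene between them, microRNAs left aside, on mouse chromosome 12 (chr12:109541001-109749460, GRCm38). They were chosen by position in the GENCODE M21 annotation, and no measured value entered the rule. The interval holds 34 such genes, and 32 of them have a row in a count table of 55335 genes. Gm26906 and Gm26945, both annotated as long noncoding RNAs, have no row there. Of the 32 members, 23 are small nucleolar RNA (snoRNA) genes and 9 belong to other classes.

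The libraries were made from small RNA of mouse embryonic stem cells (mESC) and of neural progenitor cells (NPC) derived from them. Each cell type was sampled in 6 lines, namely an Htt knockout (KO), wild type (WT), and 4 lines with a CAG knock-in at the Huntington's disease gene, which the labels call Hdh and give as heterozygous. The knock-in lines Q20, Q50, Q92 and Q111 carry their repeat number in the name, and the growth protocol gives 89 repeats where the titles give 92. The mESC were kept with leukemia inhibitory factor on irradiated CF-1 mouse fibroblasts, and the NPC with FGF and EGF on laminin. Each of the 12 groups had 2 libraries, which the labels call biological samples without naming separate cultures, so that p-values measure only the spread between these samples. The labels name no more than 1 line per genotype, so the genotype and the line it was measured in cannot be told apart.

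This stretch of chromosome 12 is the Dlk1-Dio3 domain, in which parents of origin differ in what is transcribed. Meg3, Rian and Mirg are made from the maternal chromosome, whereas Rtl1, a protein-coding gene derived from a retrotransposon, is made from the paternal chromosome. Rian carries a run of box C/D snoRNAs, and Mirg is a host of microRNAs. A box C/D snoRNA is a short RNA that is trimmed out of a longer transcript and bound by a set of proteins at its box C and box D. Most known ones guide a methyl group onto ribosomal RNA, while the snoRNAs of imprinted domains have mostly no known ribosomal target. In mouse pluripotent cells, RNA from the maternal side of this domain is known to vary from line to line.

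Total counts ran from 642384 to 2360434 per library in mESC and from 342022 to 682113 in NPC. Levels are given as CPM, which here means counts per 1000000 of a library total scaled by TMM, edgeR's factor for differences in composition. A member without a count could therefore stand as high as 1.36 to 4.23 CPM in an mESC library and 4.49 to 8.44 CPM in an NPC library, which is the limit of 3 counts. The targeted gene Htt received 94 counts in all 24 libraries together, at most 9 in any library and 7 in the 4 KO libraries, too few for a check of the labels. The list of NPC markers summed to between 8.87 and 20.1 CPM in mESC and between 413 and 1154 CPM in the 10 NPC libraries other than Q20. The Q20 NPC libraries stood apart, with 186 and 220 CPM of NPC markers and with mESC markers that the other NPC libraries lacked or nearly lacked. The comparisons of the cell types and of the other NPC lines are given with and without them.

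Counts on the members were concentrated in few of them. In all, 13 of the 32 members had a count in any library and 19 had none in 24 libraries. Together the members held 111287 of 25027120 counts, or 0.445%. The counted set comprises 8 snoRNAs and 5 other genes, which are Meg3 with 82 counts, Rian with 27969, Mirg with 570, and the less studied transcripts Gm37899 with 55 and B830012L14Rik with 58. Rtl1 and the small RNA genes Gm27596, Gm27300 and Gm27350 had 0 counts. These totals are not corrected for length, so they do not rank the genes by level.

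The counted snoRNAs fell in a narrow part of the interval. Between the end of Rian and the start of Mirg lie 10 snoRNA genes, and 7 of them were counted. Of the 13 within the span of Rian, only Gm24564 was counted, and it lies in an intron of Rian. In GENCODE M21, 9 snoRNA genes lie wholly inside an exon of another gene, 8 in Rian and Gm23347 in Gm37899, and 0 of these 9 had a count. Of the 14 snoRNA genes that overlap no exon, 8 were counted. The annotation release and the treatment of reads shared by overlapping genes are not given in the sources used here, so a count of 0 at those 9 genes was not read as a low level.

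**Figure D1:**
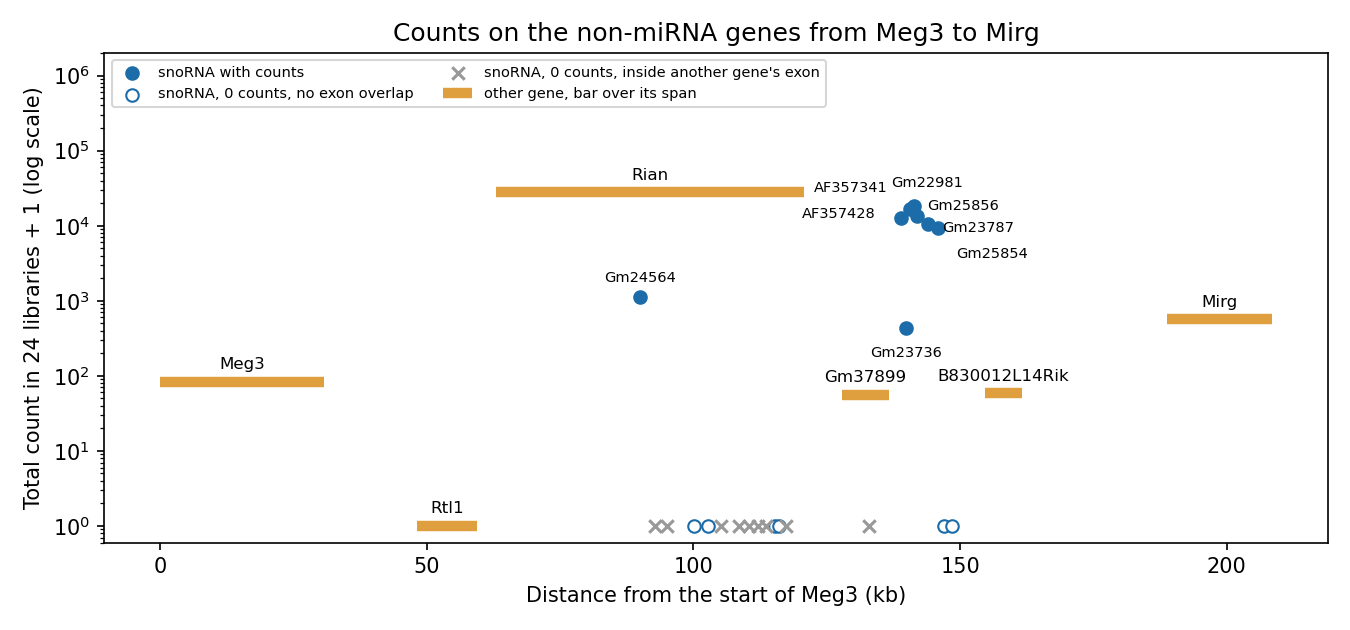
Total count over 24 libraries plus 1 (log scale) of the snoRNA genes and of 6 longer genes against their distance in kb from the start of Meg3, with points for snoRNAs, bars for the spans of the longer genes, and 3 small RNA genes with 0 counts not drawn. The 7 counted snoRNAs outside Rian form a cluster between Rian and Mirg, and the 9 snoRNAs inside other genes' exons (crosses) lie at 0 counts.

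The sequences of the 8 counted snoRNAs are shown because all results below turn on them, in the order of their position, 5′ to 3′ on the plus strand of GRCm38. Capitals mark the first TGATGA, the letters searched for as box C, and the last CTGA, searched for as box D, on this strand. The sequences are those of the GENCODE M21 transcripts. They are Gm24564 (chr12:109631074-109631148), AF357428 (chr12:109679945-109680013), Gm23736 (chr12:109680800-109680874), AF357341 (chr12:109681519-109681593), Gm22981 (chr12:109682384-109682458), Gm25856 (chr12:109682994-109683068), Gm23787 (chr12:109684962-109685034) and Gm25854 (chr12:109686798-109686869).
Gm24564: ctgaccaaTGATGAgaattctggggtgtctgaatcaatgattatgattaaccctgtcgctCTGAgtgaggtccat
AF357428: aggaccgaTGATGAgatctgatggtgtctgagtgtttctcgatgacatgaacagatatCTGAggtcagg
Gm23736: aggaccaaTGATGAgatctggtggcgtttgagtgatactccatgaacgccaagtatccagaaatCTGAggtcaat
AF357341: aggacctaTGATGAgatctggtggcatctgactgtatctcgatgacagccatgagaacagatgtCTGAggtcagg
Gm22981: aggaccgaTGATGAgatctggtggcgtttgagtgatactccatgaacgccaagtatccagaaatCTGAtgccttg
Gm25856: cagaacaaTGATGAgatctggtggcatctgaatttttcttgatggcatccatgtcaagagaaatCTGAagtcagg
Gm23787: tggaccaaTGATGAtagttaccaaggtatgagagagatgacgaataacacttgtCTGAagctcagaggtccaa
Gm25854: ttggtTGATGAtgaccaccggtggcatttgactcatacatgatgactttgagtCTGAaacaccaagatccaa

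Identity among the counted snoRNAs was uneven. Gm23736 and Gm22981 are 92% identical and share 69.6% of their stretches of 30 bases, so reads of one may have been counted for the other, and Gm23736, with 434 counts against 18379 for Gm22981, is uncertain as a separate gene. AF357428 and AF357341 are 82.7% identical and AF357341 and Gm25856 78.7%, but neither pair shares a stretch of 30 bases. Gm24564, Gm23787 and Gm25854 are at most 62.7% identical to any other counted snoRNA. No other counted snoRNA shares such a stretch with another gene of the annotation.

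All 8 counted snoRNAs hold TGATGA in their first 20 bases and CTGA in their last 20 bases. With windows of 15 bases the CTGA was found in 6 of 8, since in Gm23787 and Gm25854 it is followed by 15 more bases. The window of 20 was chosen after the sequences were seen. Both groups were found in 180 of 248 other snoRNA genes of the annotation with lengths from 68 to 82 bases, which is 72.6%. Among the 15 snoRNA genes without a count, both were found in 5 of the 9 inside exons and in 1 of the 6 that overlap no exon. That gene is DQ267102 (chr12:109656345-109656416), printed here with 2 of the 5 others, Gm22205 (chr12:109688055-109688125) and Gm25224 (chr12:109689477-109689544), which lie next to the counted cluster. In Gm22205 the marked CTGA lies near the 5′ end, outside the window, and Gm25224 has no CTGA. A missing match says only that these letters are not in these windows.
DQ267102: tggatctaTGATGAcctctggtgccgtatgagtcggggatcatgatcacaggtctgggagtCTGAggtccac
Gm22205: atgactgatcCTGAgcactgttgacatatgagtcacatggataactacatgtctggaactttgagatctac
Gm25224: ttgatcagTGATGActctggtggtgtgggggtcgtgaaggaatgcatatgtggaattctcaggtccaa

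The first comparison was between the cell types, and the members were lower in NPC. Summed over the members, the level was 6263 ± 3297 CPM in the 12 mESC libraries (SD; range 2106 to 12535) and 188 ± 105 CPM in the 10 NPC libraries other than Q20 (SD; range 48.6 to 380). The Q20 NPC libraries stood at 3971 and 4140 CPM, within the mESC range. In the other 5 lines the mean level in mESC exceeded that in NPC of the same line by 11.6-fold in Q111, 21.4-fold in WT, 25.5-fold in KO, 27.7-fold in Q50 and 130-fold in Q92. In Q20 it did so by 3.06-fold. The Q92 value rests on 32 and 46 NPC counts and on NPC TMM factors of 1.50 and 1.49, the highest of the 24 libraries. As a share of unscaled counts, the members held 0.535% and 0.647% in Q92 mESC and 0.00729% and 0.0106% in Q92 NPC. In such bulk samples, fewer cells that make an RNA and less of it per cell cannot be told apart.

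**Figure D2:**
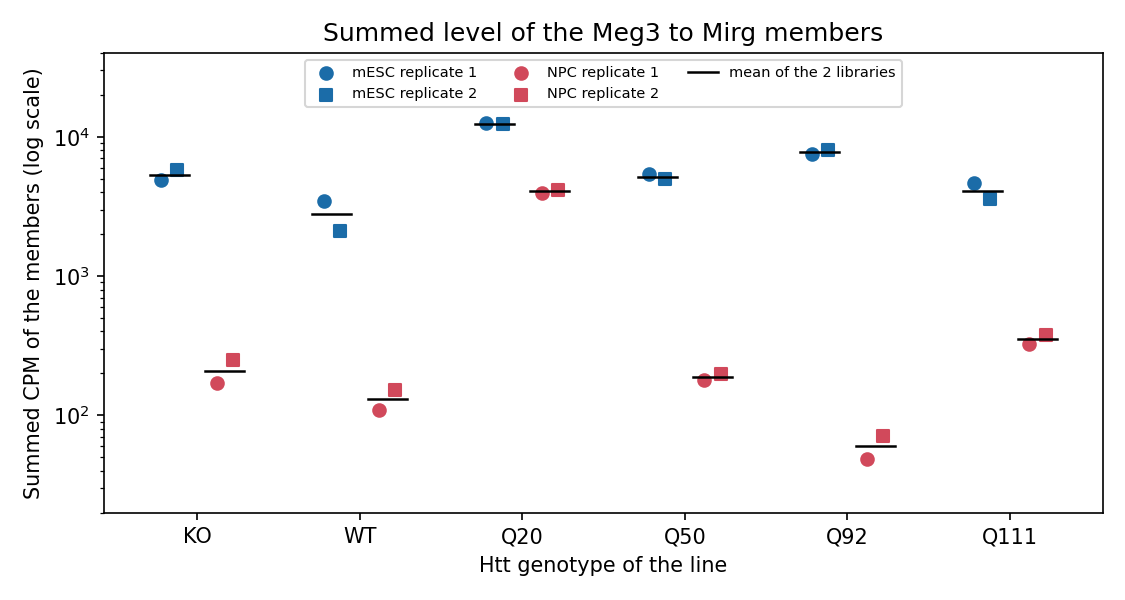
Summed CPM of all members (log scale) in each library by Htt genotype of the line, for mESC in blue and NPC in red, with a bar at the mean of the 2 libraries. The lowest mESC library lies at 2106 CPM, the Q20 NPC libraries at 3971 and 4140 CPM, and the highest of the other NPC libraries at 380 CPM.

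Rian had 382, 1331 and 3351 CPM as the lowest, median and highest of 12 mESC libraries. In NPC it had 64.3 and 47.2 CPM in WT, 84.0 and 93.6 in KO, 113 and 138 in Q50, 16.7 and 34.0 in Q92, 75.3 and 128 in Q111, and 1042 and 1061 in Q20. All NPC libraries other than Q20 lay below all mESC libraries. AF357428 had 269, 634 and 1455 CPM as the lowest, median and highest in mESC. In NPC it had 22.4 and 18.5 CPM in WT, 31.3 and 65.5 in KO, 23.1 and 16.9 in Q50, 13.7 and 10.8 in Q92, 98.7 and 110 in Q111, and 889 and 863 in Q20. Without Q20 the cell types did not overlap for AF357428 either.

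AF357341 had 354, 727 and 1958 CPM in mESC. Its NPC levels were 10.5 and 39.0 CPM in WT, 19.5 and 42.1 in KO, 6.93 and 19.7 in Q50, 9.11 and 18.6 in Q92, 88.3 and 77.8 in Q111, and 939 and 926 in Q20. As for AF357428, the Q111 libraries were the highest of the NPC libraries other than Q20. Gm22981 had 182, 749 and 2435 CPM in mESC and 1.50, 7.69 and 27.4 CPM as lowest, median and highest of the 10 NPC libraries other than Q20, with 369 and 472 in Q20 NPC.

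Gm25856 had 194, 700 and 1346 CPM in mESC and 0, 3.21 and 13.7 CPM in the 10 NPC libraries other than Q20, where 7 of 10 libraries held any count, 21 in all. Gm25854 had 187, 431 and 1024 CPM in mESC and 0, 3.81 and 13.0 CPM in those NPC libraries, also with 21 counts in all. Gm23787 had 187, 527 and 1014 CPM in mESC and 1.52, 12.7 and 18.5 CPM in those NPC libraries. The Q92 NPC libraries had 0 counts of Gm25856 and of Gm25854, so these stood at least 492-fold and at least 325-fold lower there than in Q92 mESC, with 3 counts over both libraries as the limit. Gm24564, the intronic snoRNA of Rian, had 1075 counts in mESC and 2 counts in the 10 NPC libraries other than Q20, a ratio of 159 in pooled CPM with a counting interval of 43.9 to 1315 (95%, exact). Gm23736 had 390 counts in mESC and 7 in those NPC libraries.

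The longer transcripts at the ends of the interval gave few counts. Mirg had 7.24, 27.6 and 90.8 CPM in mESC, and among NPC libraries other than Q20 it had 1 count in KO and 3 in Q111. Meg3 had 77 counts in mESC, where its level ran from 0.554 to 14.1 CPM, and 5 in NPC, of which 4 were in Q20. B830012L14Rik had 53 counts in mESC and 5 in NPC, and Gm37899 had 54 and 1, with each of these NPC counts in the Q20 libraries. Levels of Meg3, B830012L14Rik and Gm37899 were thus near the limit of 3 counts in most libraries.

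**Figure D3:**
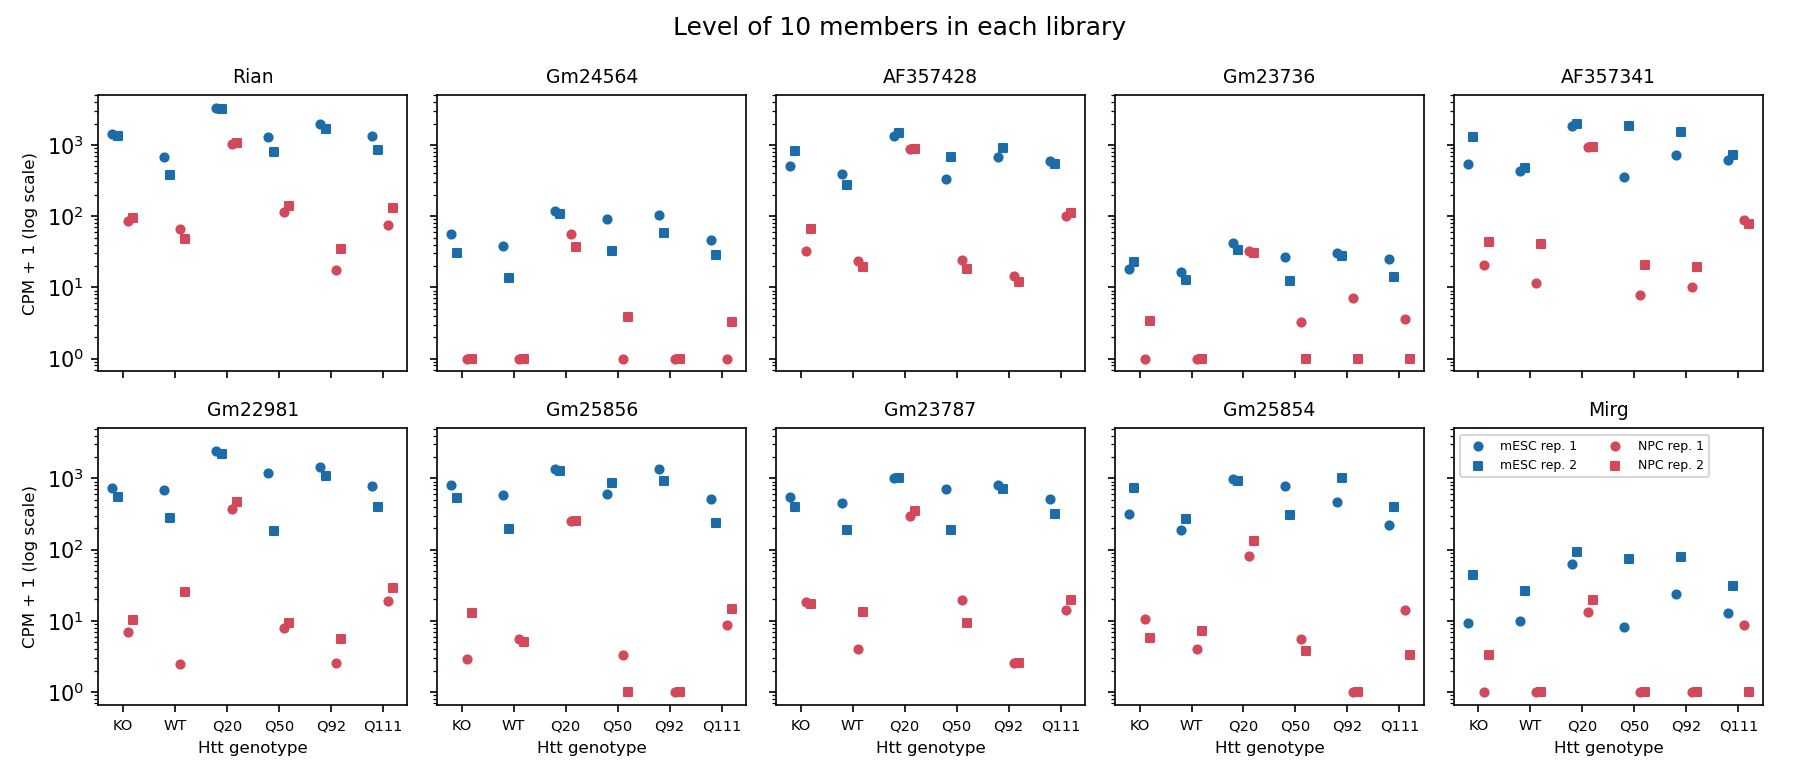
CPM plus 1 (log scale) of 10 members in each of 24 libraries, by Htt genotype, with mESC in blue, NPC in red, circles for replicate 1 and squares for replicate 2. Within each line the NPC points lie below the mESC points, and the Q20 NPC points lie above the NPC points of the other lines in each panel.

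In the edgeR fit across 24 libraries, 904 genes passed the filter on low counts, among them 10 of the 13 counted members. Meg3, B830012L14Rik and Gm37899 did not pass. All 10 tested members fell in NPC at a Benjamini-Hochberg adjusted p under 0.05, where 58.4% of all genes tested were called and 28.0% were called lower. The log2 differences ran from -3.58 ± 0.17 (SE) in Rian (edgeR adjusted p 4.69e-14) and -3.59 ± 0.18 in AF357428 (edgeR adjusted p 1.54e-13) to -6.65 ± 0.33 in Gm25854 (edgeR adjusted p 2.16e-13) and -7.11 ± 0.32 in Gm25856 (edgeR adjusted p 4.69e-14). AF357341 fell by 4.32 ± 0.29 on the log2 scale. Mirg fell by 5.47 ± 0.78, or by 3.29 with its groups at 0 counts set to the limit of 3 counts. The median over the 10 members was -5.27, against -0.02 over all genes tested. For 5 of them, namely Gm24564, Gm23736, Gm25856, Gm25854 and Mirg, some group had 0 counts, and the fitted value then depends on the prior count. With those groups set to the limit of 3 counts, the median was -4.14. Without the Q20 libraries, 4 members (Rian, AF357428, AF357341 and Gm22981) passed the filter in NPC, so the others tested entered through libraries in which they were high. Counts of members called in NPC against mESC are therefore a description, also in the fits that follow.

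Because the Q20 NPC libraries lay within the mESC range, only 1 of the 10 tested members had NPC and mESC libraries that did not overlap, against 11.0% of all genes. Without the Q20 groups all 10 members were again called, with log2 differences from -4.12 to -8.20, where 57.2% of 850 genes were called. In those 20 libraries the cell types did not overlap for 9 of the 10 members, all but Mirg, where 7.53% of genes had all NPC libraries below all mESC libraries. Wild-type libraries alone gave 8 of 8 tested members called, where 28.0% of 440 genes were called.

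The Q20 NPC libraries were then compared with the other 10 NPC libraries. This contrast was set with earlier results of these data known, in which Q20 NPC stood apart, so its p-values are a description. Each of the 9 members tested was higher in Q20 NPC, where 18.1% of 441 genes were called and 12.0% were called higher. Rian rose by 4.02 ± 0.17 (SE, log2; edgeR adjusted p 7.19e-12), AF357428 by 4.95 ± 0.18 (edgeR adjusted p 7.19e-13), AF357341 by 5.29 ± 0.25 (edgeR adjusted p 2.00e-11) and Gm22981 by 5.66 ± 0.32 (edgeR adjusted p 1.75e-10). Gm25856 had the highest fitted difference at 6.70 ± 0.32, or 6.01 with the groups at 0 set to the limit of 3 counts. The median over the 9 members was 5.29, or 4.95 with that limit, against 0.10 over all genes tested. Both Q20 NPC libraries lay above all other NPC libraries for 9 of 9 members, against 12.2% of genes with groups that did not overlap.

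Of the 9 members, 4 (Rian, AF357428, AF357341 and Gm22981) also passed the filter without the Q20 libraries. The others entered that fit only through the Q20 libraries and had to differ, so the count of 9 is a description. A fit over the genes that passed the filter in mESC, chosen after the data were seen, tested all 13 counted members in the same NPC libraries. Of these, 11 were called, where 5.51% of 1741 genes were called. In this fit AF357341 had an unadjusted edgeR p of 1.75e-139, against 1.65e-13 in the main fit of the same libraries. The p-values of this fit were therefore not taken to measure the spread between samples, and its calls are a description. Mirg was called (edgeR adjusted p 2.89e-07), with 19 counts against 4, a ratio of 19.6 in pooled CPM with a counting interval of 6.51 to 79.2. B830012L14Rik was called (edgeR adjusted p 0.0493) with 5 counts against 0, which makes it at least 6.87-fold higher, with 3 counts over the group as the limit. Meg3, with 4 counts against 1, was not called (edgeR adjusted p 0.149), nor was Gm37899, with 1 count against 0 (edgeR adjusted p 0.588).

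Among the NPC libraries, markers of mESC were high where the members were. In the Q20 NPC libraries, 13 of the 20 mESC markers with a row had a count, and the list summed to 346.2 and 346.6 CPM. The sum was 0 to 2.29 CPM in the other NPC libraries, 1010 to 2517 CPM in mESC, and 2118 and 2335 CPM in Q20 mESC. In WT mESC, the line with the lowest summed level of the members, it was 1663 and 2517 CPM. In mESC, 20821 of the 27119 counts on the list were of Mir293. Mir302b, also on the list, was the 1 gene that edgeR called higher in Q20 against WT mESC. Of the 421 counts on the list in Q20 NPC, 261 were of Mir302b and 107 of Mir293, both microRNAs of pluripotent cells, and 11 were of Lin28a. The pluripotency genes Nanog, Zfp42, Tdgf1, Fgf4, Dppa5a and Esrrb had 0 counts there, and Pou5f1 had 2. Each of these genes had only 72 to 133 counts in the 12 mESC libraries, so 0 counts in 2 NPC libraries was not read as absence. The 18 NPC markers were lower in Q20 NPC than in the other NPC lines, with 186 and 220 CPM against 413 to 1154 CPM, and 5 of the 10 tested were called lower. Markers of endoderm and mesoderm had 0 counts in all NPC libraries and only 11 in the mESC libraries, too few to read. The part of other cells in the level of the members was not tested.

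The difference between the lines in the change from mESC to NPC was itself tested in the fit of 24 libraries. Q20 was again set apart with earlier results of these data known, so the p-values of this contrast are a description. For 9 of the 10 members tested, the fall was called smaller in Q20 than the mean fall of the other 5 lines, where 2.88% of 904 genes were called. Only Rian, AF357428, AF357341 and Gm22981 passed the filter in NPC without the Q20 libraries, so the count of 9 is a description. The difference was 2.33 ± 0.42 (SE, log2) in Rian (edgeR adjusted p 0.000872), 3.49 ± 0.45 in AF357428 (edgeR adjusted p 2.82e-05) and 3.95 ± 0.70 in AF357341 (edgeR adjusted p 0.000872). In Mirg it was 3.82 ± 1.60 (edgeR adjusted p 0.321), or 1.19 with its groups at 0 counts set to the limit of 3 counts. The call was lost in Rian, Gm22981 and Gm23736 without replicate 2 of Q20 mESC, which left 6 members called, and in Gm22981 also without replicate 1.

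**Figure D4:**
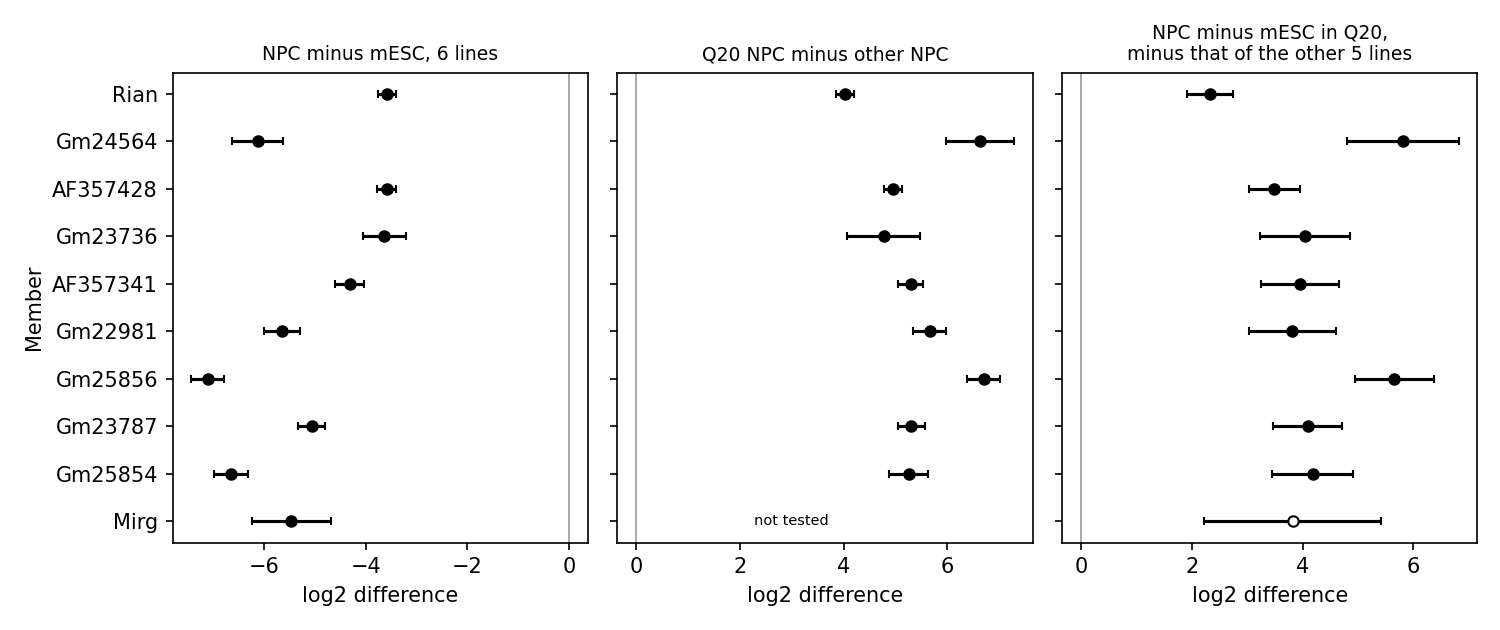
Log2 differences with standard errors of 10 members for NPC minus mESC over 6 lines, for Q20 NPC minus the mean of the other NPC lines, and for the change of Q20 minus the mean change of the other 5 lines. Filled points passed the adjusted p of 0.05 and the open point of Mirg did not, and all points lie left of 0 in the first panel and right of 0 in the other panels.

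Among the NPC lines other than Q20, differences from WT were asked line by line, with 441 genes and 9 members tested in each. Only Rian, AF357428, AF357341 and Gm22981 passed the filter without the Q20 libraries. The other members entered through Q20 and held few counts in the lines compared. Counts of members called and medians over the 9 are therefore a description. In Q111, AF357428 rose by 2.45 ± 0.34 (SE, log2; edgeR adjusted p 0.000206) and AF357341 by 1.94 ± 0.48 (edgeR adjusted p 0.0141), 2 of 9 members where 10.9% of genes were called. Rian in Q111 had 0.97 ± 0.31 (edgeR adjusted p 0.0526). In Q50, Rian rose by 1.10 ± 0.31 (edgeR adjusted p 0.0419), 1 of 9 members where 6.58% of genes were called. AF357428 in Q50 had -0.07 ± 0.43 and AF357341 -0.90 ± 0.66. In Q50 NPC, Rian thus stood at 113 and 138 CPM against 64.3 and 47.2 CPM in WT, while AF357428 stood at 23.1 and 16.9 against 22.4 and 18.5.

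The Q50 call of Rian was lost with DESeq2 size factors, with library totals, without a filter and without the Q20 libraries (edgeR adjusted p 0.165). It was also lost in 10 of 12 fits that left out a library. The Q111 call of AF357341 was lost without a filter, without the Q20 libraries (edgeR adjusted p 0.0562), and when replicate 1 of either WT or Q111 was left out. AF357428 stayed called in Q111 in each of the 12 fits that left out a library, with log2 differences from 2.33 to 2.60.

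In KO NPC, 0 of 9 members were called by edgeR, where 1.36% of genes were called, while 3 had an unadjusted p under 0.05, against 11.6% of genes, and DESeq2's Wald test called AF357428. Its edgeR value was 1.27 ± 0.37 (adjusted p 0.106). In Q92 NPC, 0 of 9 were called by edgeR and 0 by DESeq2, with 3 at an unadjusted p under 0.05, although 18.8% of genes were called there and 37.0% had an unadjusted p under 0.05. The Q92 NPC libraries held the lowest summed level of all lines, 59.9 ± 16.0 CPM (SD, n = 2), against 131 ± 30.3 in WT. The levels of Q50 and KO were 187 ± 13.4 and 209 ± 55.2 CPM, and that of Q111 was 352 ± 38.9 CPM (SD, n = 2 each). All these comparisons share the WT libraries. Gm24564 had 0 counts in KO, WT and Q92 NPC, so it could not be called in KO or Q92. The median log2 difference over the 9 members was 0.74 in KO, -0.07 in Q50, -0.84 in Q92 and 1.40 in Q111, against 0.08, 0.04, 0.24 and 0.08 over all genes tested. With groups at 0 set to the limit of 3 counts, those of the members were 0.68, -0.65, -0.87 and 1.07.

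A slope of the log2 level per 10 CAG repeats over Q50, Q92 and Q111 NPC could be tested for 3 members. It was 0.47 ± 0.13 in AF357341 (SE; edgeR adjusted p 0.0807), 0.41 ± 0.13 in AF357428 (edgeR adjusted p 0.112) and -0.07 ± 0.11 in Rian (edgeR adjusted p 0.748). None of the 3 was called by edgeR, 2 had an unadjusted p under 0.05, and DESeq2's Wald test called AF357341, where edgeR called 4.25% of 353 genes and 20.7% had an unadjusted p under 0.05. The level did not follow the repeat number in steps, since Q92 lay below Q50 in AF357428 with 13.7 and 10.8 against 23.1 and 16.9 CPM, and only Q111 lay higher. With Q20 added, the slopes turned to -0.42 in AF357341 and -0.37 in AF357428. In mESC, 0 of 12 members had a called slope by edgeR or DESeq2, with 0 at an unadjusted p under 0.05, where 0% of 1300 genes were called and 4.31% had an unadjusted p under 0.05.

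In mESC most members shared the highest and the lowest line, but not the order between them. The mean summed level was 12401 ± 189 CPM in Q20, 7776 ± 330 in Q92, 5334 ± 581 in KO, 5185 ± 266 in Q50, 4089 ± 757 in Q111 and 2792 ± 971 in WT (SD, n = 2 each). Libraries of KO (4923 and 5744 CPM) and Q50 (4996 and 5373 CPM) overlapped, while the other neighbours in this order did not. The gap was narrow between Q111, at 3554 CPM in its lower library, and WT, at 3479 CPM in its higher library. Q20 was the highest line in 12 of 13 counted members, all but Meg3, and WT the lowest in 11 of 13, all but Meg3 and Gm25856. Within replicate 1 WT stood at 3479 CPM and the next lowest line at 4624 CPM, and within replicate 2 at 2106 and 3554 CPM.

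Both Q20 mESC libraries lay above the other 10 mESC libraries for 7 of 13 members, against 2.60% of 1766 genes. These are Rian, AF357428, Gm22981, Gm23787, Gm24564, Gm23736 and Gm37899. The Q20 mESC libraries also differed in behaviour, with totals of 1795879 and 1901042. Their replicate difference correlated at no more than 0.08 with those of the other lines, which correlated at 0.41 to 0.52 among themselves. The part of this in the Q20 levels was not tested. For Rian the Q20 mESC levels were 3351 and 3191 CPM, and the next highest libraries were those of Q92 with 1948 and 1688 CPM. WT had 683 and 382 CPM of Rian, KO 1413 and 1345, Q50 1303 and 798, and Q111 1316 and 857. For AF357428 the Q20 mESC levels were 1343 and 1455 CPM, above 671 and 901 in Q92, 504 and 810 in KO, 331 and 682 in Q50, 598 and 543 in Q111, and 389 and 269 in WT.

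Against WT mESC, the edgeR fit called 0 of 13 members in each of KO, Q20, Q50, Q92 and Q111. It called 0% of 1766 genes in KO, Q50, Q92 and Q111 and 0.0566% in Q20, which is 1 gene, Mir302b. An unadjusted p under 0.05 was reached by 3 members in KO, 12 in Q20, 2 in Q50, 7 in Q92 and 0 in Q111, against 1.02%, 4.98%, 2.66%, 2.66% and 3.74% of all genes. In Q20, Rian had a log2 difference of 2.68 ± 0.50 (SE; edgeR adjusted p 0.0590) and AF357428 one of 2.15 ± 0.46 (edgeR adjusted p 0.158). The median over the 13 members was 2.15 in Q20, against -0.07 over all genes. DESeq2's Wald test called 6 members in Q20, namely Rian, AF357428, AF357341, Gm22981, Gm24564 and Gm25854, and 0 in the 4 other lines. With a replicate block, edgeR called 10 of 13 members in Q20, where 25 of 1766 genes were called. It also called Rian in Q92, and 0 members in KO, Q50 and Q111. The block is an alternative only, since the replicate numbers were not taken to pair the samples. The replicate difference of Q20 correlated at no more than 0.08 with those of the other lines, so the block fits Q20 poorly. Rian in Q20 passed edgeR's test with library totals, with snoRNA totals and without a filter and when either Q50 library was left out, while its adjusted p reached 0.999 without replicate 2 of WT. The 5 comparisons share the WT libraries, which held the lowest summed level of the mESC lines.

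Replicates of a line differed in the make-up of the members in mESC. A difference shared between lines was not particular to the members. Over all 1766 genes tested in mESC, replicate differences correlated at 0.41 to 0.52 in the 10 pairs of lines other than Q20. AF357341 and Mirg were higher in replicate 2 than in replicate 1 in 5 of 5 lines other than Q20, with median log2 ratios of 1.06 and 1.76. Rian, Gm24564, Gm22981 and Gm23787 were higher in 0 of 5, with median log2 ratios of -0.62, -0.91, -0.97 and -0.70. The widest gap was in Q50, where Gm22981 had 1171 CPM in replicate 1 and 182 in replicate 2, whereas AF357341 had 354 and 1851. In Q20 the log2 ratio lay between -0.34 and 0.56 for the 10 members. The total counts of these 5 lines were 2134729 to 2360434 in replicate 1 and 642384 to 1149003 in replicate 2, and the part of depth in these ratios was not tested. The summed level overlapped between the replicates, from 3479 to 7543 CPM in replicate 1 and from 2106 to 8009 CPM in replicate 2.

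**Figure D5:**
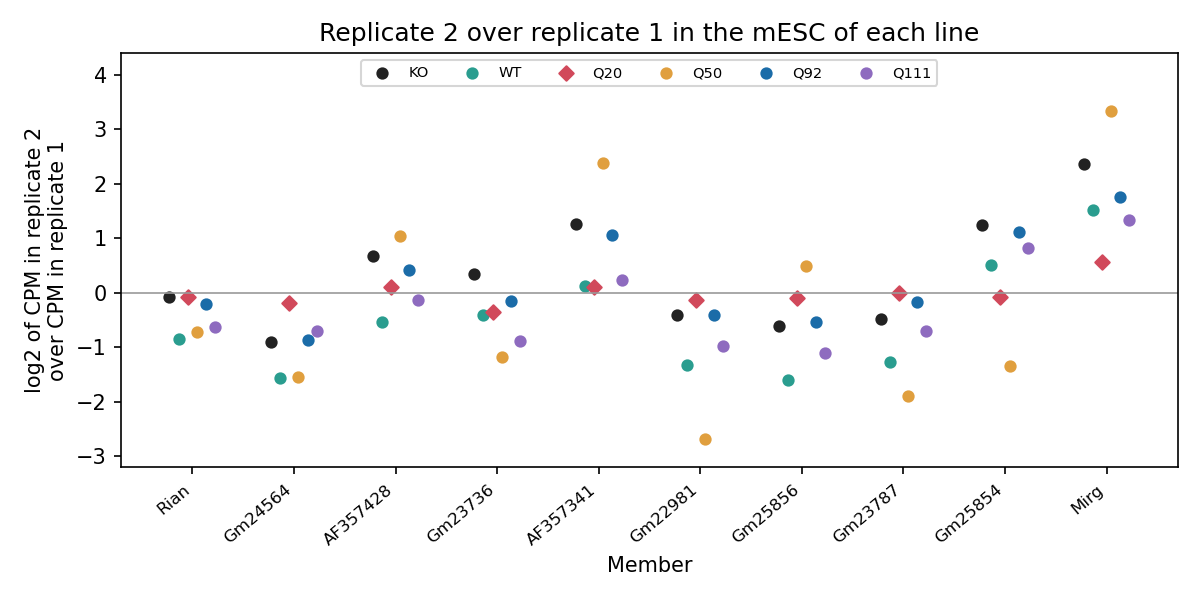
Log2 of the CPM in replicate 2 over the CPM in replicate 1 for 10 members in mESC, with a point for each line and a diamond for Q20. The points of AF357341 and Mirg lie above 0 and those of Rian, Gm24564, Gm22981 and Gm23787 below 0 in the 5 lines other than Q20, while the diamonds stay between -0.34 and 0.56.

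Across the 24 libraries, levels of the 10 members in that plot were correlated, with Pearson correlations of log2(CPM + 1) from 0.84 to 0.98 over 45 pairs and a median of 0.93. Without the Q20 NPC libraries they ran from 0.84 to 0.98 with a median of 0.94. Both sets hold both cell types. Over the 10 mESC libraries other than Q20 the correlations ran from -0.42 to 0.98 with a median of 0.45. These values share library depth and are given without a test.

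The share of each member in the interval's counts differed between the sets of libraries. Rian took 25.0% of the counts in mESC (pooled over 12 libraries), 25.9% in Q20 NPC and 42.6% in the other NPC libraries. AF357428 took 10.9%, 21.6% and 21.7%, and AF357341 14.7%, 23.0% and 17.5%. Gm22981 took 16.9%, 10.4% and 5.72%, and Gm25856 12.3%, 6.12% and 2.45%. AF357428 and AF357341 thus held larger pooled shares in Q20 NPC than in mESC, as did Gm23736 (0.370%, 0.750% and 0.818%). Gm22981, Gm25856, Gm25854 (8.58%, 2.63% and 2.45%) and Gm23787 (9.60%, 7.94% and 5.84%) held smaller ones. By library the share of AF357428 ran from 6.15% to 15.3% in mESC, and was 20.8% and 22.4% in Q20 NPC. That of Gm25854 ran from 4.80% to 14.6% in mESC and was 2.01% and 3.18% in Q20 NPC. Gm25856 had 6.02% and 6.24% in Q20 NPC against 6.59% to 17.8% in mESC. For these 3 snoRNAs the Q20 NPC libraries lay outside the range of the 12 mESC libraries. The same held for Gm23736, with 0.719% and 0.786% against 0.226% to 0.555%. Gm23787, with 7.51% and 8.32% against 3.75% to 13.0%, lay inside the mESC range. AF357341, with 22.4% and 23.7% against 6.58% to 37.1%, and Gm22981, with 9.30% and 11.4% against 3.64% to 21.8%, lay inside it. Shares are of counts, not per length, and were not tested.

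MicroRNA genes of the same interval, 66 rows, were followed by their counts alone. They held 137 to 786 counts per mESC library, 122 and 125 in the Q20 NPC libraries, and 0 to 4 in the other NPC libraries.

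Other genes that bear on the domain were followed by lists. Of 9 neighbours, among them Dlk1, Begain and Dio3, 0 passed the filter in NPC against mESC, and Dlk1 had 4 counts in all, Begain 4 and Dio3 3. Of 12 other imprinted coding genes, 3 were tested and 3 rose in NPC. These were Mest by 2.80 ± 0.42, Peg3 by 1.26 ± 0.44 and Peg10 by 1.01 ± 0.21 (SE, log2), the opposite direction from the members. The other coding genes of that list were not tested. Among them, Grb10 had 54 counts in mESC, 0 in Q20 NPC and 2 in the other NPC libraries, and Ndn had 7, 3 and 10. Of 25 other imprinted noncoding genes, 0 were tested. Snhg14 had 75 counts in mESC, 12 in Q20 NPC and 2 in the other NPC libraries, and Kcnq1ot1 had 55, 4 and 20. Of 11 genes that act on DNA methylation or imprints, whether to keep or to remove them, 4 were tested and 3 fell. These were the DNA oxidase Tet1 by 3.78 ± 0.38, Uhrf1 by 1.70 ± 0.46 and the corepressor Trim28 by 1.03 ± 0.26. Of the box C/D protein genes, 1 of 8 with a row was tested, and Nop58, a core protein of the particle, fell by 2.13 ± 0.35 (edgeR adjusted p 1.29e-05). Without the Q20 groups, Mest had 3.05 and Peg10 0.81, Tet1 -4.33, Uhrf1 -1.77, Trim28 -1.12 and Nop58 -2.54, all called, while Peg3 did not pass the filter. In Q20 NPC against the other NPC lines, Peg3 rose by 2.36 ± 0.55 and Peg10 by 0.90 ± 0.30, whereas Mest had -0.38 ± 0.54.

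Since the mESC were grown on fibroblasts, fibroblast markers were counted too. Of 16 markers, 6 had a count in mESC, with a sum of 13.6 to 29.7 CPM, against 2.60 to 20.8 CPM in the NPC libraries other than Q20 and 14.1 and 27.7 in Q20 NPC. The defining genes Col1a1, Col1a2, Col3a1, Dcn, Postn and Lum had 0 counts in mESC, and Fn1 with 295 and Sparc with 49 counts made up most of the sum. Fn1, the gene of fibronectin, was the marker tested and fell by 2.32 ± 0.35 (SE, log2) in NPC, and by 2.60 without the Q20 groups. The part of feeder RNA in the level of the members was not tested. In Q20 mESC, where the members were highest, the sum was 13.6 and 19.7 CPM, against 17.9 to 29.7 CPM in the other mESC libraries.

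The genes outside the interval whose level was most like the summed level of the members were taken by Pearson correlation of log2(CPM + 1) over 24 libraries, among 853 genes and with microRNAs left aside. They were Igf2bp1 with 0.93, Zdbf2 with 0.92, Snord123 with 0.90, and Snord13 and Rif1 with 0.88 each. Without the Q20 NPC libraries these were 0.93, 0.92, 0.90, 0.94 and 0.90. Igf2bp1, an RNA-binding protein gene, had a mean of 21.2 CPM in mESC, 21.3 in Q20 NPC and 0.347 in the other NPC libraries. Zdbf2, an imprinted gene, had 11.9, 20.0 and 0 CPM. Snord123, a box C/D snoRNA, had 195, 191 and 27.3 CPM. Within the 12 mESC libraries alone these correlations ran from -0.39 in Zdbf2 to 0.68 in Igf2bp1.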

How the data were processed

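Small RNA was sequenced from 24 libraries, 12 groups of 2. The deposited table holds raw counts per gene, made by the authors; CASAVA 1.8, STAR, HTSeq and the GRCm38.p6 build are named in the submitters' processing notes without their roles. The annotation release, strand setting and handling of multiply aligned reads are not given in the sources used here. The columns headed Q89 were taken as the Q92 samples, whose growth protocol gives 89 repeats.

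Members were taken from GENCODE M21 by coordinates, and 55154 table identifiers matched it, with 57 counts on the others. The members, the gene lists and the contrasts that set Q20 apart were chosen with earlier results of these data known. Named were all members other than snoRNAs, and snoRNAs with a mean of at least 10 CPM in a group. Counts were tested on the whole table with edgeR 4.0.16 (R 4.3.3, quasi-likelihood, TMM, filterByExpr at 10 counts and a summed count of 15), and p-values were adjusted by Benjamini-Hochberg with a threshold of 0.05. The mESC-to-NPC change was fitted over 24 libraries, and lines were compared within 12 libraries of a cell type. A prior count enters fitted values of groups at 0. Counting intervals are exact at 95%, cover counting error only, and use a limit of 3 counts for 0.

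Alternatives were DESeq2 1.42.0, other scalings, no filter, a replicate block, fewer libraries, and leaving out each library. On simulated counts with a log2 change of 2, the fit recovered 100% of changed genes in NPC against mESC (856 genes), 63% in Q20 against WT mESC (1605 genes) and 73% for the difference in change (719 genes). Depth is given with the results.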

Additional observations from a re-analysis of the deposited data

Results flagged for a closer look

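The change from mESC to NPC differed between Q20 and the other 5 lines in 9 of 10 members tested, by the test of the difference itself (edgeR, adjusted p from 2.82e-05 to 0.00399). In that test 2.88% of 904 genes were called. Of the members, only Rian, AF357428, AF357341 and Gm22981 passed the filter in NPC without the Q20 libraries. The others entered through libraries in which they were high, so the count of 9 is a description. Q20 was set apart with earlier results of these data known, so the p-values are a description too. On the log2 scale the difference was 5.82 in Gm24564, 5.66 in Gm25856, 4.18 in Gm25854, 4.09 in Gm23787, 4.05 in Gm23736, 3.95 in AF357341, 3.82 in Gm22981, 3.49 in AF357428 and 2.33 in Rian. With groups at 0 set to the limit of 3 counts, it was 3.22 in Gm24564, 4.89 in Gm25856, 3.37 in Gm25854 and 3.24 in Gm23736. The Q20 NPC libraries also held 346.2 and 346.6 CPM of mESC markers, and the part of that in these values was not tested.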

How the results depend on the processing

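All 10 members tested stayed lower in NPC than in mESC under each alternative that tested them. Genes called there numbered 528, with 2024 without a filter, 123 in wild type alone and 801 in replicate 1 alone. Genes called in Q20 NPC numbered 80, and 48 by DESeq2. For the NPC lines against WT, 3 members and 166 genes were called in all, against 1 and 54 without a filter and 1 member without the Q20 libraries. For the mESC lines against WT, 0 members and 1 gene were called, against 1 and 2 with library totals, 1 and 2 with snoRNA totals, 2 and 6 without a filter, and 6 and 10 by DESeq2. The CAG slope in NPC called 0 members and 15 genes, against 1 member with library totals, without a filter or by DESeq2, and 6 members and 26 genes with Q20 added, where AF357428 turned to -0.37 and AF357341 to -0.42. In mESC it called 0 genes, and 3 without a filter. The summed Q20 NPC level of 4056 CPM became 4821 with library totals, 5412 with snoRNA totals and 2981 for snoRNAs alone. The causes were not tested.

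Deviations of same-numbered mESC libraries correlated at 0.41 to 0.52 in the 10 pairs among lines other than Q20 and at up to 0.08 in the 5 that include Q20. Of the 15 NPC pairs, 4 were over 0.1. As not every pair was, the numbers were not taken to pair the samples. With a replicate block, the mESC lines gave 11 members (10 in Q20 and Rian in Q92) and 30 genes called, the CAG slope 7 genes in NPC and 11 in mESC, the NPC lines 3 members and 194 genes, Q20 NPC 9 and 87, NPC against mESC 10 and 553, and the difference in change 9 and 31.

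With each library left out in turn, NPC against mESC gave 10 to 10 members and 646 to 724 genes, and Q20 NPC 9 to 10 members and 21 to 111 genes, the fewest without replicate 1 of Q20 NPC. The NPC lines gave 1 to 6 members and 66 to 258 genes, the mESC lines 0 to 2 and 0 to 7, and the difference in change 6 to 9 and 14 to 29. The CAG slope gave 0 to 2 members and 0 to 23 genes in NPC and 0 to 0 and 0 to 9 in mESC. The summed level ran from 5693 to 6641 CPM in mESC, 167 to 203 in NPC other than Q20, and 3971 to 4140 in Q20 NPC. Fits with 1 library in a group assume that it varies like the others. Of 280 alternatives for single members, 262 kept direction and side of the threshold, 6 lost the call, 10 gained it and 2 reversed. NPC depth limits Meg3, Mirg, Gm37899 and B830012L14Rik most. Replicate 1 alone, replicate 2 alone, the filter passed in mESC and the fit without Q20 were chosen after seeing the data.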
